A study of Mus musculus with 2 samples.

Results

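The genes described here are 8 nucleolar genes of ribosome biogenesis (*Ncl*, *Npm1*, *Fbl*, *Nop56*, *Nop58*, *Dkc1*, *Nolc1* and *Nop10*) and 2 MYC family transcription factors (*Myc* and *Mycn*), chosen by name and followed in single cells. Of these 10 genes, 8 were matched by Ensembl ID to a row of the expression table of 10666 genes. *Nop10* and *Mycn* were not analysed here. The cells are from 2 replicate cultures of cortical neurospheres, spheres of dividing neural progenitors that grow in suspension, from wild-type mouse embryos at embryonic day 14.5, kept in EGF and bFGF at 10 ng/ml each. Culture 1 holds 5748 cells (median 19477 UMIs and 3445 genes per cell) and culture 2 holds 7057 cells (median 14637 UMIs and 2833 genes). A UMI is a tag that marks 1 captured RNA molecule.

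Ribosomes are assembled in the nucleolus, where RNA polymerase I transcribes the ribosomal RNA precursor and where this precursor is cleaved, chemically modified and joined to ribosomal proteins. NCL (nucleolin) and NPM1 (nucleophosmin) are abundant nucleolar proteins that bind RNA and chaperone assembly. FBL (fibrillarin) is the methyltransferase of the box C/D small nucleolar ribonucleoproteins (snoRNPs), in which NOP56 and NOP58 are the core scaffold proteins. DKC1 (dyskerin) is the pseudouridine synthase of the box H/ACA snoRNPs, and NOLC1 is a phosphoprotein that binds snoRNPs of both kinds. MYC, paired with MAX, binds E-box sequences and is known to activate genes of ribosome production, whereas MAX paired with proteins of the MXD family is known to repress E-box genes.

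There is 1 condition, so no groups were tested. Values are given for each culture, and cells were not treated as replicates. The expression values are linear and were normalized for the depth of each cell by the authors. Within a culture they sum to almost the same total in every cell (coefficient of variation 0.611% and 0.641%). All values are from the 3′ end of transcripts and are not scaled by length. The libraries share 48 cell barcodes, and leaving those cells out changed the median correlation between nucleolar genes by less than the spread between cultures. Of the markers of progenitors, *Fabp7* was detected in 100% and 99.96% of cells of cultures 1 and 2, *Nes* in 93.3% and 89.8%, and *Pax6* in 21.1% and 23.1%. *Vim* was detected in 99.2% and 99.9%, *Slc1a3* in 92.1% and 94.1%, and *Hes1* in 44.5% and 50.5%. Of the markers of oligodendrocyte progenitors, *Olig2* was detected in 97.3% and 91.9% of cells. The others were sparse: *Cspg4* in 11.8% and 13.7%, *Pdgfra* in 8.77% and 1.81%, and *Sox10* in 4.26% and 0.751%. The neuronal markers *Dcx* and *Gad1* were detected in at most 7.34% of cells of culture 1 and 1.56% of culture 2. Detection of *Dcx* and *Gad1* was therefore lower in the shallower culture. Of the astroglial markers, *Aldh1l1* was detected in 43.2% and 28.8% of cells and *S100b* in 18.6% and 6.65%.

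In the GENCODE vM21 annotation of GRCm38, the member genes lie on 7 chromosomes. *Nop58* (chromosome 1, 59684971 to 59719044, plus strand) and *Ncl* (chromosome 1, 86344719 to 86359400, minus strand) share chromosome 1. *Nop56* is on chromosome 2 (130274430 to 130279313, plus), *Fbl* on chromosome 7 (28169710 to 28179269, plus) and *Npm1* on chromosome 11 (33152287 to 33163206, minus). *Myc* is on chromosome 15 (61985391 to 61990374, plus), *Nolc1* on chromosome 19 (46075863 to 46085530, plus) and *Dkc1* on the X chromosome (75095854 to 75109777, plus). *Ncl*, *Nop56*, *Nop58* and *Dkc1* host 3, 5, 4 and 1 annotated small nucleolar RNA genes, so these loci encode protein and guide RNA components of the same machinery. *Nop56* overlaps *Idh3b* on the opposite strand and *Dkc1* overlaps *Mpp1* on the opposite strand. The cell-to-cell correlation was −0.063 and −0.011 between *Nop56* and *Idh3b*, and 0.015 and 0.008 between *Dkc1* and *Mpp1*, so neither overlapping neighbour tracked its member. *Npm1* is known to have many processed pseudogenes, and its counts are uncertain to the extent that the quantification split reads among copies.

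Because the nucleolar genes varied together from cell to cell, the letters just before their start sites are shown. RefSeq promoter windows of GRCm38.p6 were matched for 5 of the 7 measured nucleolar genes, and the 60 bases upstream of the start are printed 5′ to 3′ on the strand of the gene. The stretch of *Nop58* ends 35 bases further upstream, before the earlier start of the gene in GENCODE. For *Mxd4*, an MXD family gene described further down, the 60 bases around its E-box are printed. Capitals mark the E-box CACGTG, or its variant CACGCG on either strand (CGCGTG on the other). The stretches are chr1:86359456-86359515 (*Ncl*, minus), chr2:130274352-130274411 (*Nop56*, plus), chr1:59684911-59684970 (*Nop58*, plus), chrX:75095794-75095853 (*Dkc1*, plus), chr19:46075787-46075846 (*Nolc1*, plus) and chr5:34187897-34187956 (*Mxd4*, minus).
Ncl: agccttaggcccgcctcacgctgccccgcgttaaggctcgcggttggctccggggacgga
Nop56: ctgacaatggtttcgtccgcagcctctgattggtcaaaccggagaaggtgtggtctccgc
Nop58: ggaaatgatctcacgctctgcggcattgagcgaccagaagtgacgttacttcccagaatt
Dkc1: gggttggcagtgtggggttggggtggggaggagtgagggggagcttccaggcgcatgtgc
Nolc1: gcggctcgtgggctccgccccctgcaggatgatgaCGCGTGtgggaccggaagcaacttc
Mxd4: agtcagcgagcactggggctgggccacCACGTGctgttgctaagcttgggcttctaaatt

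CACGTG was found in 0 of these 5 windows of nucleolar genes (250 bases before to 50 after the start), and 7.15% of all 32851 windows hold it. CACGCG was found in 1 of the 5, in the stretch of *Nolc1* printed above, and is in 9.27% of all windows. With 5 windows these counts do not set the nucleolar genes apart from all windows. The window of *Mxd4* holds 1 CACGTG, which begins 219 bases before the start. A match or its absence describes only the letters of this window and says nothing on binding.

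All 7 nucleolar genes were among the more highly expressed genes of the table, whereas *Myc* was sparse. *Npm1* had a mean normalized value of 23.4 in culture 1 and 20.4 in culture 2 (medians 22.3 and 19.2), and was detected in 99.98% and 99.9% of cells. *Ncl* had means of 12.2 and 10.7 and was detected in 99.7% and 99.3% of cells. Transcripts of both were thus captured with nearly every cell barcode, and the share that free RNA in the droplets adds was not measured for any member.

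Of the snoRNP proteins, *Fbl* had means of 3.39 and 3.05, *Nop56* of 2.57 and 2.12, and *Nop58* of 2.52 and 2.14. *Nolc1* had means of 2.24 and 2.01, and *Dkc1* of 1.27 and 1.01. Detection of these 5 genes was lowest for *Dkc1* (70.9% and 48.2% of cells in cultures 1 and 2) and highest for *Fbl* (95.2% and 87.4%). All 7 nucleolar transcripts were found together in 54.6% of the cells of culture 1 and in 23.3% of those of culture 2. By mean value the nucleolar genes lay between the 85.8th (*Dkc1*) and 99.3rd (*Npm1*) percentile of the table in culture 1, and between the 83.4th and 99.2nd in culture 2.

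**Figure D1:**
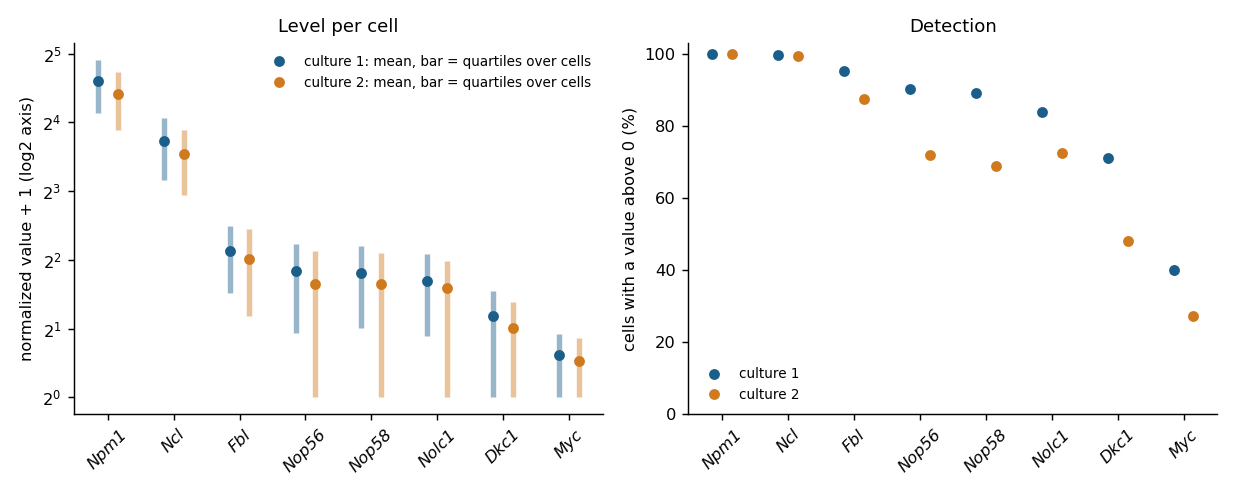
Levels and detection of the 8 measured genes. Left, the mean (points) and quartiles over cells (bars) of the normalized value plus 1 on a log2 axis; right, the share of cells with a value above 0 in percent, with exact 95% binomial intervals that are mostly smaller than the points. Culture 1 lies above culture 2 for every gene, and *Myc* is the least detected with 40.0% and 27.2% of cells.

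*Myc* had mean values of 0.540 and 0.447. It was detected in 40.0% of cells of culture 1 (exact 95% binomial interval 38.7% to 41.3%, counting error only) and in 27.2% of culture 2 (26.1% to 28.2%). Its median over cells was 0 in both cultures, and its mean lay at the 70.5th and 67.9th percentile of the table. No cell type that should lack *Myc* was defined in these cultures.

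The mean of every member was higher in culture 1. The log2 ratio of the means (culture 1 over culture 2) ran from 0.15 (*Fbl*) to 0.33 (*Dkc1*), and was 0.27 for *Myc*. Over all 10666 genes its median was 0.09, and the middle 90% of genes lay between −0.30 and 0.50, so that the 8 members lay above the median and within that range. In cells of like depth (14000 to 18000 UMIs; 1249 and 2435 cells) the ratio was 0.45 for *Myc* and 0.12 to 0.35 for the nucleolar genes, against a median of 0.10 over all genes. Among these cells *Myc* was detected in 39.5% in culture 1 and 28.3% in culture 2. Each culture is 1 library, so a difference between cultures has no replicate check.

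Along the cell cycle, most nucleolar genes were highest after the start of S phase and lowest among G1 and G0 cells at the end of the circle. *Fbl* varied least of the nucleolar genes, and *Myc* was highest among G1 and G0 cells at the start of the circle. The position of each cell on the cell cycle was deposited as an angle in radians. On this circle G1 and G0 cells lie around 0, S phase begins near 0.5π, G2 and M begin near 1π and the middle of mitosis lies near 1.5π. Cells were placed in 8 classes of 0.25π. The 2 classes between 1.25π and 1.75π are thin, with 85 and 64 cells in culture 1 and 279 and 189 in culture 2.

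*Nop56*, the box C/D scaffold protein, had the widest change among the members. In culture 1 its mean value went from 2.31 in the first class (0 to 0.25π) through 3.11, 3.59, 3.20 and 2.76 to 2.23, 2.44 and 1.72 in the last class (1.75π to 2π). In culture 2 the corresponding means were 2.22, 3.17, 3.38, 2.68, 2.20, 2.01, 2.15 and 1.63. Both cultures peaked in the class that follows the start of S phase (0.5π to 0.75π), 2.09-fold and 2.07-fold above the last class. On the log2(value + 1) scale these classes differed by 0.83 and 0.79, against 0.30 between the means of the cultures.

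*Nop58*, its partner in the same particle, was 1.95-fold and 1.71-fold higher in the class from 0.5π to 0.75π than in the last class (mean values 3.32 against 1.70 in culture 1, and 2.89 against 1.69 in culture 2). *Nolc1* was 1.87-fold and 1.77-fold higher (3.13 against 1.67, and 3.07 against 1.73). The highest and lowest classes of *Dkc1* differed 1.86-fold and 1.63-fold, with *Dkc1* detected in 82.7% of cells at 0.5π to 0.75π and 57.5% in the last class of culture 1, and in 61.8% and 39.6% in culture 2. On the log2 scale *Nop56*, *Nop58*, *Nolc1* and *Dkc1* thus had the same highest class in both cultures.

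The abundant nucleolar proteins had narrower ranges. *Ncl* stayed high from S phase into G2 and M in culture 1 (mean values 13.8, 13.6 and 14.2 in the 3 classes from 0.5π to 1.25π, against 9.90 in the last class) and peaked at 0.5π to 0.75π in culture 2 (12.6 against 9.55). *Npm1* ranged from 18.9 to 27.6 in culture 1, a 1.46-fold difference, while its range in culture 2 was 19.0 to 23.4, a 1.23-fold difference. *Fbl*, the methyltransferase of the particle that holds NOP56 and NOP58, varied less along the circle, and its class means lay between 3.26 and 3.70 in the first culture and between 2.77 and 3.24 in the second.

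For 6 of the 7 nucleolar genes the difference between the highest and the lowest class, on the log2 scale, was larger in both cultures than the difference between the means of the cultures. The exception was *Fbl*, with class differences of 0.20 and 0.16 against 0.19 between cultures. In culture 1, 5 of 7 nucleolar genes were highest at 0.5π to 0.75π and 6 of 7 lowest at 1.75π to 2π. In culture 2 these counts were 7 and 5 of 7. Multiplying the values back by the UMIs of each cell, so that they follow the RNA content of the cell, widened the difference between highest and lowest class to 2.39-fold and 2.27-fold for *Nop56* and to 1.76-fold and 1.59-fold for *Ncl*.

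**Figure D2:**
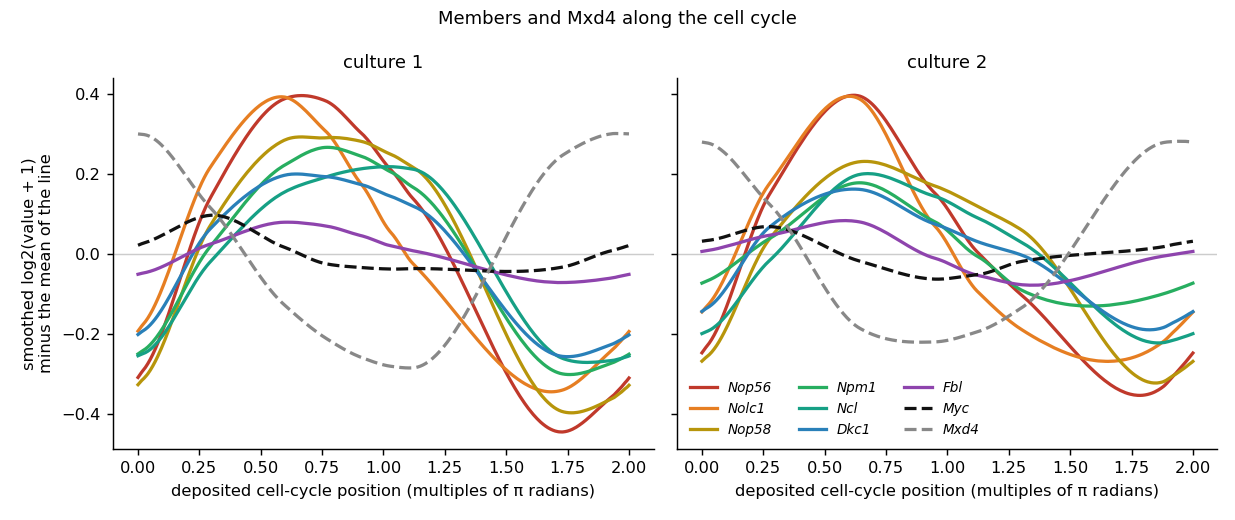
Periodic loess lines (span 0.3) of log2(value + 1) against the deposited cell-cycle position in multiples of π radians, each minus its own mean, for the 8 measured members (7 nucleolar genes solid, *Myc* dashed black) and *Mxd4* (dashed grey), in culture 1 (left) and culture 2 (right). Lines of 6 nucleolar genes rise to between 0.585π and 1.02π and fall towards the end of the circle, *Fbl* and *Myc* stay within a range of 0.16, and *Mxd4* runs the opposite way.

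Smoothed lines placed the maxima close together. In culture 1 the maximum lay at 0.585π for *Nolc1*, 0.61π for *Fbl*, 0.645π for *Dkc1*, 0.665π for *Nop56* and *Nop58*, 0.77π for *Npm1* and 1.02π for *Ncl*. In culture 2 all 7 maxima lay between 0.58π (*Fbl*) and 0.675π (*Ncl*). The maxima of *Nop56*, *Nop58*, *Nolc1*, *Dkc1* and *Fbl* differed by at most 0.045π between cultures, whereas *Ncl* differed by 0.345π and *Npm1* by 0.13π. The median of the 7 maxima moved to 0.885π with the wider loess span of 0.5, so the order of the genes along the circle is not resolved.

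The share of the variance between cells that follows the position was modest. A fit with 2 harmonics of the position gave R2 values in culture 1 of 0.149 for *Npm1*, 0.127 for *Nop58*, 0.126 for *Nop56*, 0.103 for *Ncl*, 0.0784 for *Nolc1* and 0.0608 for *Dkc1*. In culture 2 these were 0.0216, 0.0498, 0.0630, 0.0465, 0.0497 and 0.0247, each lower than in culture 1. *Fbl* (0.00490 and 0.00230) and *Myc* (0.00590 and 0.00548) were near the medians over all genes outside the members, 0.00324 and 0.00236.

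With a threshold of 0.05 in both cultures, 1 of the 8 members was called (*Nop56*), against 428 of the 10666 genes of the table (4.01%). *Nop58*, *Nolc1* and *Ncl* were just below the threshold in culture 2. Culture 1 alone gave 6 of 8 (597 of the 10666 genes) and culture 2 alone 1 of 8 (454 genes). The count was 6 with a threshold of 0.02 (890 genes of the table) and 0 with 0.1 (240 genes). Members of the list behind the deposited position were not examined here. A position rebuilt from 90 S and G2M genes of Seurat, none of which is a member, gave 2 of 8 (421 genes of the table). With it the R2 values of *Nop56* were 0.122 and 0.0642.

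By the deposited Seurat stages, the mean nucleolar score (the mean of the 7 nucleolar genes after each was scaled to an SD of 1 in its culture) was 0.278 and 0.284 SD in S cells, 0.165 and 0.0488 in G2M cells and −0.306 and −0.125 in G1 cells. *Nop56* had mean values of 3.33 and 3.11 in S cells and 1.86 and 1.72 in G1 cells. Median depth was higher in S cells (20463 and 15403 UMIs) than in G1 cells (18355 and 14104), and the R2 of *Nop56* along the position with depth held fixed was 0.126 and 0.0599. By the stages of SchwabeCC, the staging method with the finest stages, the order was another one. The score was highest in G1.S cells (0.244 and 0.215 SD), followed by M.G1 cells (0.132 and 0.171). It was 0.0953 and −0.0170 in S cells, and lowest in cells called G2 (−0.356 and −0.270). Of the 436 and 541 cells called G2, 227 and 311 lay in the last position class (1.75π to 2π), among G1 and G0 cells. The authors report that SchwabeCC mis-assigns G0/G1 cells to other stages.

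Cells of the last position class were not uniform. Those that SchwabeCC called M.G1 had a mean score of −0.0327 and 0.122 SD (446 and 741 cells), whereas those it called G2 had −0.660 and −0.405 (227 and 311 cells), with standard errors over cells of at most 0.0337. *Nop56* was at 2.24 and 2.17 in the former and 1.35 and 1.20 in the latter, and *Npm1* at 22.1 and 21.9 against 15.3 and 18.0. Median depth differed little (18274 and 14146 UMIs against 18295 and 13950). Within this class, nucleolar transcripts were higher in cells staged M.G1 than in cells staged G2 in both cultures. Whether nucleolar genes are among those that define these stages was not tested.

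*Myc* was highest ahead of the nucleolar genes. Its mean value was 0.677 in the first class of culture 1 and 0.427 at 0.75π to 1π. In culture 2 it was 0.580 in the first class and 0.295 at 0.75π to 1π. The highest and lowest classes thus differed 1.59-fold and 1.96-fold, wider than for *Ncl* and *Npm1*. Its mean log2(value + 1), a scale that narrows the range of a sparse gene, was 0.55 ± 0.03 (SE over cells) in the first class of culture 1 and 0.39 ± 0.02 at 0.75π to 1π. In culture 2 the values were 0.47 ± 0.02 and 0.26 ± 0.02. Detection in culture 1 was 44.3%, 44.8% and 44.6% in the classes from 0 to 0.75π and 37.1% at 0.75π to 1π. In culture 2 it was 34.3% in the first class and 21.8% at 0.75π to 1π. With the values multiplied back by the UMIs of each cell, *Myc* in culture 1 was at 0.558 in the first class, 0.564 in the next and 0.474 at 0.75π to 1π. In culture 2 it was then at 0.552 in the first class and 0.357 at 0.75π to 1π. Its smoothed maximum then lay at 0.325π and 0.285π. With the normalization kept, the smoothed maximum lay at 0.305π and 0.27π, ahead of those of all 7 nucleolar genes. The range was 0.14 and 0.13 on the log2 scale. With an R2 below 0.01 in both cultures, the position accounted for almost none of the variance of *Myc*.

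**Figure D3:**
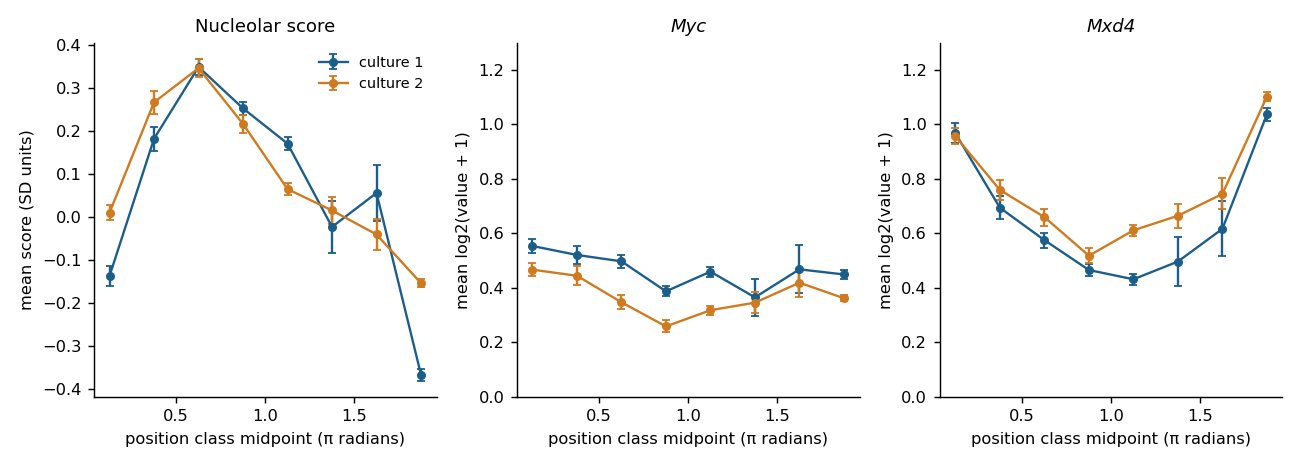
Means (± SE over cells) in 8 classes of the cell-cycle position, by culture, for the nucleolar score in SD units (left), *Myc* (middle) and *Mxd4* (right), the latter as log2(value + 1). The score peaks at 0.349 and 0.346 in the class from 0.5π to 0.75π and is lowest in the last class, *Mxd4* is highest in the last class (1.04 and 1.10), and *Myc* stays between 0.26 and 0.55.

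Beyond the cell cycle, the nucleolar genes were co-expressed from cell to cell. Over the 21 pairs of the 7 nucleolar genes, Pearson's r of log2(value + 1) had a median of 0.272 in culture 1 (5748 cells) and 0.199 in culture 2 (7057 cells). Cells of a culture share a library, so these correlations describe that library and carry no p. *Ncl* and *Npm1* were the closest pair, with r of 0.504 and 0.331. *Nop58* with *Npm1* (0.373 and 0.212) and *Nop58* with *Ncl* (0.343 and 0.262) followed in culture 1.

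Of the 21 pairs, 18 had an r of at least 0.1 in both cultures. Among 1975078 pairs of the 1988 genes detected in at least 50% of the cells of each culture (6 of the 7 nucleolar genes included), 1.38% did so. The median r of those background pairs was 0.00762 and 0.00656, and their 99th percentile 0.205 and 0.122. The partners in the C/D particle, *Nop56* and *Nop58*, correlated at 0.332 and 0.242, and *Nop56* correlated with *Dkc1*, of the other particle, at 0.252 and 0.184. *Nolc1* correlated with *Nop56* at 0.244 and 0.229 and with *Ncl* at 0.290 and 0.244.

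*Fbl* stood lowest in this group. Its 6 pairs had a median r of 0.151 and 0.0927, against 0.290 and 0.212 for the 15 pairs without it, and the 3 pairs below 0.1 in a culture were *Fbl* with *Nop56*, *Dkc1* and *Nolc1*. *Fbl* was closest to *Npm1* (0.244 and 0.199). Against the mean of the other 6 nucleolar genes, r ran from 0.246 (*Fbl*) to 0.567 (*Npm1*) in culture 1 and from 0.201 (*Fbl*) to 0.439 (*Ncl*) in culture 2.

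**Figure D4:**
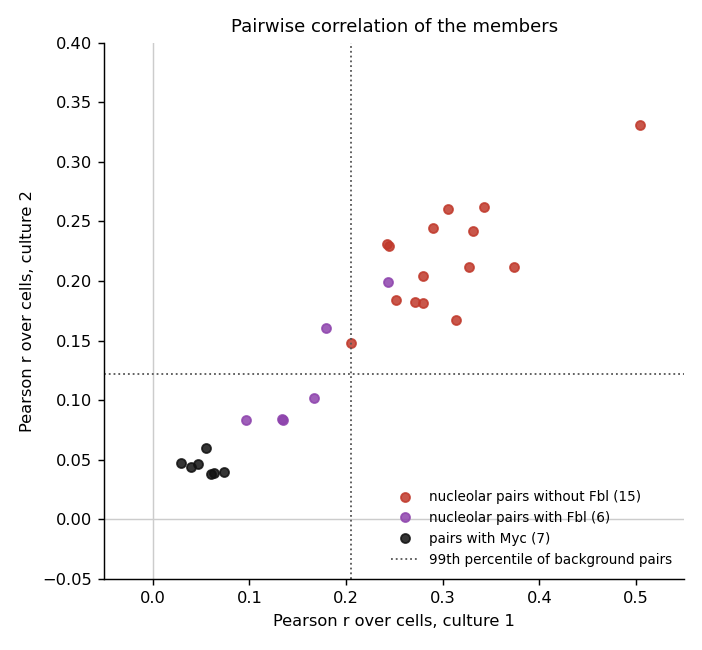
Pearson's r over cells for each pair of members in culture 1 (x axis) and culture 2 (y axis), with 15 nucleolar pairs without *Fbl* (red), 6 with *Fbl* (purple) and 7 pairs of a nucleolar gene with *Myc* (black). Dotted lines mark the 99th percentile of background pairs, 0.205 and 0.122; the pairs without *Fbl* lie at or above both lines, and the pairs with *Myc* lie near 0.05.

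The correlation was also present with the cell cycle and depth held fixed. After the position and the UMIs of each cell were removed by regression, the median r over the 21 pairs was 0.213 and 0.177. Among cells of the Seurat G1 stage alone it was 0.239 and 0.180. *Ncl* with *Npm1* kept 0.436 and 0.311 after removal, and the lowest pairs were 0.0810 and 0.0730. Before this removal, all 15 pairs without *Fbl* and all 6 pairs with it were lower in culture 2, where depth was lower.

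*Myc* tracked the nucleolar genes weakly. Its r with the nucleolar score was 0.0869 and 0.0810, and its r with single nucleolar genes ran from 0.0297 (*Fbl*) to 0.0733 (*Nop58*) in culture 1 and from 0.0382 (*Dkc1*) to 0.0597 (*Npm1*) in culture 2. None of the 7 pairs reached 0.1 in both cultures, and neither did *Myc* with any of the 10665 other genes (0 genes, 0%). A correlation of this size in sparse counts is a description and no finding.

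Grouping cells by *Myc* gave the same picture. The 2300 cells of culture 1 with *Myc* had a mean nucleolar score of 0.0739 SD and the 3448 without it −0.0493, a difference of 0.123. In culture 2 the scores were 0.0810 (1916 cells) and −0.0302 (5141 cells), a difference of 0.111. Cells with *Myc* were slightly deeper (medians 20346 against 18927 UMIs, and 15163 against 14418), and the difference was positive in each of 3 equal bins of depth in both cultures (0.0795 to 0.152 and 0.0832 to 0.120). With the position and depth in the fit, the difference was 0.117 and 0.109. All 7 nucleolar genes had a higher mean in cells with *Myc* in both cultures. For example, *Nop58* was at 2.68 against 2.41 in culture 1 and 2.24 against 2.10 in culture 2. *Nop56* was at 2.67 against 2.51 in culture 1 and 2.28 against 2.06 in culture 2. The difference was small against the SD of the score over cells, 0.607 and 0.553.

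Ranked over the table, 610 of 10659 genes (5.72%) had an r of at least 0.1 with the nucleolar score in both cultures. The most alike by the lower of both r values was *Ptma*, which encodes the histone-binding protein prothymosin alpha (0.526 and 0.394), followed by *Ranbp1*, a regulator of the RAN GTPase in nuclear transport (0.476 and 0.389). The other genes of the top 15 were *Serbp1*, *Set*, *Lyar*, *Cnbp*, *Srsf7*, *Anp32b*, *Rsl1d1*, *Gnl3*, *Eif4a1*, *Srm*, *Prmt1*, *Cct6a* and *Snrpd1*, each with an r of at least 0.320 in both cultures. Of the 15, 3 are in the ribosome biogenesis lists (*Lyar*, *Rsl1d1* and *Gnl3*, all nucleolar proteins). Along the position, 8 of the 15 were themselves called, against 4.01% of the table. After the position and depth were removed, 12 of the 15 were still in the top 15, led by the translation initiation helicase *Eif4a1* (0.408 and 0.363), and *Hspd1*, *Hmgb1* and *Gpatch4* entered.

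Genes that assemble ribosomes were mostly alike with the score. Of 53 genes of large subunit assembly in the table, 35 had an r of at least 0.1 in both cultures (median 0.154 and 0.152), led by *Lyar* (0.429 and 0.362), *Rsl1d1* (0.369 and 0.345) and *Gnl3* (0.342 and 0.350). Of 49 genes of the small subunit processome, which cleaves the rRNA precursor, 28 did (0.114 and 0.118), led by *Wdr43* (0.305 and 0.254). Of 14 further snoRNP proteins and assembly factors, 8 did (0.133 and 0.152), led by *Snu13*, the RNA-binding protein of the C/D particle (0.388 and 0.308), and the H/ACA proteins *Gar1* (0.303 and 0.271) and *Nhp2* (0.267 and 0.260). Over all 10658 genes outside the members the median r was −0.00533 and −0.00171.

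The machinery of rRNA transcription was less close by this count. Of 15 genes of RNA polymerase I and its factors, 4 had an r of at least 0.1 in both cultures (median 0.0895 and 0.0792), among them *Taf1d* (0.272 and 0.175) and *Tcof1*, which encodes the nucleolar factor treacle (0.255 and 0.200). Many of these genes were sparse (median detection 30.3% and 27.1% of cells), and the part of sparsity in their r was not tested. None of the genes in these 4 lists was called along the position except *Lyar* (R2 0.185 and 0.126), against 4.01% of the table.

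Known MYC targets outside the nucleolus were read next. Of 15 in the table, 9 had an r of at least 0.1 with the nucleolar score in both cultures (median 0.161 and 0.148), led by *Eif4a1* (0.402 and 0.338), the spermidine synthase gene *Srm* (0.359 and 0.334) and the mitochondrial chaperone gene *Hspd1* (0.325 and 0.311). Their median r with *Myc* itself was −0.0131 and 0.00141, where no gene of the table reached 0.1 in both cultures. *Ppat* (R2 0.0706 and 0.0541) and *Shmt1* (0.134 and 0.0891), of purine and one-carbon metabolism, were the 2 of the 15 called along the position, against 4.01% of the table.

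**Figure D5:**
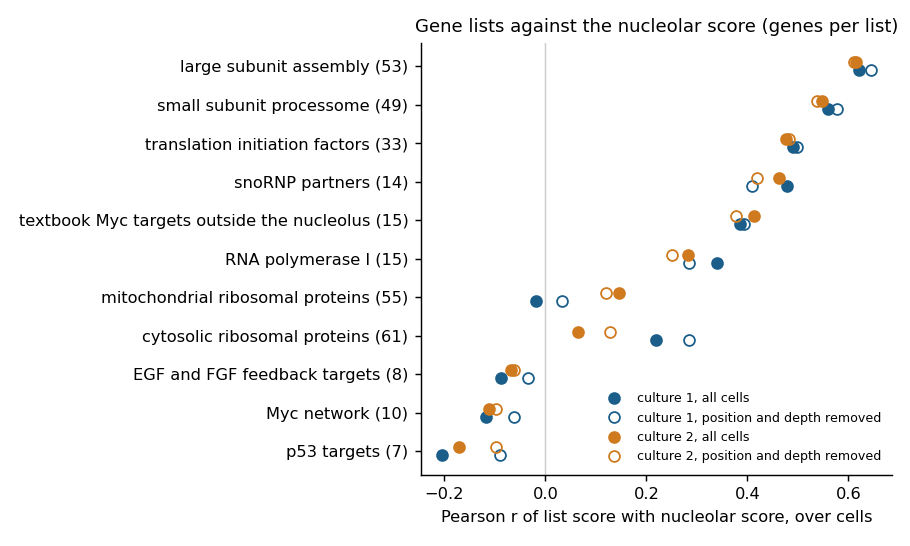
Pearson's r over cells between the nucleolar score and the mean scaled level of each gene list, members left out, by culture, for all cells (filled) and after the position and depth were removed (open). In all cells the snoRNP and subunit assembly lists lie between 0.462 and 0.621, and RNA polymerase I at 0.339 and 0.282. Translation initiation factors lie at 0.490 and 0.476, and known MYC targets outside the nucleolus at 0.385 and 0.412. Cytosolic ribosomal proteins lie at 0.219 and 0.0648, and the p53 targets at −0.204 and −0.171.

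Averaging the genes of a list reduces the noise of single transcripts. The mean scaled level of the large subunit assembly genes correlated with the nucleolar score at 0.621 and 0.615, that of the small subunit processome at 0.559 and 0.548, that of the snoRNP partners at 0.479 and 0.462 and that of RNA polymerase I at 0.339 and 0.282. After position and depth were removed the first of these was 0.645 and 0.611. Like the nucleolar score, the snoRNP partners were lowest in the last position class in both cultures, with a part that followed the position (R2 0.118 and 0.0551) smaller than that of the nucleolar score (0.213 and 0.0930).

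Ribosomal protein genes, the products that the nucleolar machinery assembles, tracked the nucleolar genes less as a group. Of 61 cytosolic ribosomal protein genes, 16 had an r of at least 0.1 with the score in both cultures (median 0.124 and 0.0319), although they were detected in nearly every cell. Their mean scaled level correlated with the score at 0.219 and 0.0648 (0.284 and 0.128 after removal of position and depth), and it was lowest at 0.75π to 1π in both cultures, where the nucleolar score was well above its mean. Of 55 mitochondrial ribosomal protein genes 1 reached 0.1 in both cultures (median −0.00341 and 0.0382), and of 33 translation initiation factors 16 did (0.103 and 0.101). By mean scaled level, all 4 ribosome biogenesis lists had a higher r than both kinds of ribosomal protein in each culture. By the median over single genes this held in culture 2, whereas in culture 1 the small subunit processome (0.114) and RNA polymerase I (0.0895) lay below the cytosolic ribosomal proteins (0.124). Closeness to the score by mean scaled level was not particular to ribosome biogenesis. The translation initiation factors (0.490 and 0.476) lay above the snoRNP partners and RNA polymerase I in both cultures. Known MYC targets outside the nucleolus (0.385 and 0.412) lay above RNA polymerase I. By the median over single genes the initiation factors (0.103 and 0.101) lay below the snoRNP partners (0.133 and 0.152). They lay above RNA polymerase I (0.0895 and 0.0792) by that median too. The lists hold 33 initiation factors, 14 snoRNP partners and 15 RNA polymerase I genes. The part of list size in the mean scaled levels was not tested. With 2 cultures the difference between lists was not tested.

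Within the MYC and MAX network, *Mxd4* was the gene that moved with the nucleolar score, and it moved the opposite way. MXD4 is a MAX partner of the MXD family. *Mxd4* had mean values of 1.02 and 1.21 and was detected in 48.4% and 60.2% of cells. Its r with the score was −0.334 and −0.287, and −0.237 and −0.241 after the position and depth were removed. It ranked 8th among the 10 genes most opposite to the score over the whole table. Of 10 network genes in the table, 0 had an r of at least 0.1 with the score in both cultures, against 5.72% of the table. With 10 genes this count does not set the network apart from the table. *Max*, the common partner, had an r of 0.0814 and 0.0846.

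*Mxd4* was negatively correlated with every nucleolar gene. Its r was −0.276 and −0.241 with *Ncl*, −0.273 and −0.195 with *Npm1*, −0.228 and −0.169 with *Nop58*, −0.218 and −0.170 with *Nop56*, −0.176 and −0.151 with *Dkc1*, −0.127 and −0.136 with *Nolc1* and −0.122 and −0.0509 with *Fbl*. With *Myc* it was −0.000319 and −0.0135. Along the circle *Mxd4* ran opposite to the nucleolar genes, with class means of the value of 1.56 and 1.61 in the last class, and its lowest class means of 0.512 (1π to 1.25π) in culture 1 and 0.608 (0.75π to 1π) in culture 2. Its R2 of 0.0975 and 0.0713 was past the threshold in both cultures.

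Cells with *Mxd4* had a lower nucleolar score. In culture 1 the score was −0.166 SD in 2784 cells with *Mxd4* and 0.156 in 2964 without, and in culture 2 it was −0.0876 in 4247 cells and 0.132 in 2810. The difference of −0.321 and −0.220 was −0.266 and −0.225 among cells of the Seurat G1 stage, and was negative in each of the 3 bins of depth (−0.375 to −0.261 and −0.265 to −0.222). Cells with *Mxd4* were the deeper ones (medians 20400 against 18485 UMIs, and 15169 against 13945). At like depth (14000 to 18000 UMIs) *Mxd4* was detected in 41.6% of cells of culture 1 and 60.8% of culture 2. All 8 members were lower in culture 2, and so was the median gene of the table (log2 ratio of culture 1 over culture 2 of 0.10). Each culture is 1 library, so a link between these differences was not tested.

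With cells sorted by detection of *Myc* and *Mxd4*, the mean nucleolar score of the groups had the same order in both cultures. Cells with *Myc* and without *Mxd4* had a mean score of 0.218 ± 0.0162 and 0.197 ± 0.0196 (SE over 1193 and 738 cells). Cells with neither had 0.113 ± 0.0138 and 0.109 ± 0.0122. Cells with both had −0.0815 ± 0.0175 and 0.00833 ± 0.0151, and cells with *Mxd4* alone −0.221 ± 0.0147 and −0.124 ± 0.00978. The mean value of *Ncl* in these classes was 13.8, 13.4, 11.4 and 10.5 in culture 1 and 12.3, 11.8, 10.3 and 9.67 in culture 2. Cells with neither were the shallowest (medians 18012 and 13836 UMIs) and cells with both the deepest (21826 and 15749). Position and depth were not held fixed in these groups. *Mxd4* was picked out of the network for its values in these cells, so these groupings are a description.

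The genes most like *Myc* were few and weak. *Gnl3*, which encodes the nucleolar GTPase nucleostemin (0.0713 and 0.0911), and *Gtpbp4*, a large subunit assembly GTPase (0.0827 and 0.0660), led the 8 most alike, followed by *Olig2*, *Eif4a1*, *Basp1*, *Spry4*, *Ncald* and *Chic2*, with r of at least 0.0525. Of these, 2 are in the ribosome biogenesis lists, and 4 of the 8 remained after position and depth were removed. Of 8 feedback targets of EGF and FGF signalling, the growth factors of the medium, 0 had an r of at least 0.1 with the nucleolar score. Of 2 immediate early genes, *Fosb* and *Fosl1*, 0 did, against 5.72% of the table. Lists this short are not set apart from the table by such counts, and *Fosb* and *Fosl1* were detected in at most 4.12% of cells. No gene of the table reached 0.1 with *Myc* in both cultures. The feedback target *Spry4* was the 6th most like *Myc* (0.0563 and 0.0553), and *Ccnd1* was the 3rd after position and depth were removed (0.0684 and 0.0813). Of 7 p53 targets 0 had a positive r with the score in both cultures, against 3919 of 10658 genes. Their median r was −0.111 and −0.0980, and −0.0384 and −0.0247 after the position and depth were removed, and *Ccng1* was the most opposite at −0.256 and −0.184.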

How the data were processed

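Both cultures were assayed with droplet-based 3′ single-cell RNA-seq. The authors quantified spliced transcripts with alevin (Salmon 1.3.0 per the submitters' processing notes) against GRCm38, removed cells outlying in depth, gene number, mitochondrial share or doublet score, and deposited expression as a signal: linear values normalized for the depth of each cell. Counts were not recovered from them, so no count model was used. No further doublet caller was run. The deposited total UMIs of a cell add up estimated counts. The per-cell table of the authors also holds other values, an angle for the position and the stages of 3 methods. The GENCODE release used here for coordinates is not the authors'.

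Values were used as log2(value + 1). R2 is from a fit with 2 harmonics of the position, called at 0.05 in both cultures. Lines are periodic loess of degree 2 and span 0.3 on tripled data. The position was also rebuilt as a polar angle from Seurat's S and G2M genes (Seurat 5.3.0, R 4.3.3), and its circular correlation with the deposited position was 0.933 and 0.908. Other steps used Python 3.11.15, numpy 2.4.6 and pandas 2.3.3. Symbols were found for 10662 of 10666 genes.

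The members and gene lists were chosen with earlier results of these data known. Named are the members, the 15 genes most like and 10 most opposite to the score, the 8 most like *Myc*, the leading genes of each list, overlapping genes and cell type markers. Fits were tested on simulated data. With 1 condition and 2 cultures no p-value was computed. Undoing the normalization for correlations, other thresholds for members and leaving out shared barcodes were alternatives chosen after seeing the data.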

Additional observations from a re-analysis of the deposited data

How the results depend on the processing

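The nucleolar genes' own correlation was positive under every alternative run: the median over pairs, averaged over both cultures, was 0.236 and moved beyond the spread between cultures only with the depth normalization undone (0.361). Either culture alone gave 0.199 to 0.272. The correlation of *Myc* with the nucleolar score, 0.0840 on average, was 0.0895 with a pseudocount of 0.1, 0.0976 with the position removed, 0.0970 with position and depth removed, 0.105 in G1 cells and 0.141 with the normalization undone; either culture alone gave 0.0810 to 0.0869. The median R2 of the 8 measured members was 0.0632, and 0.104 with the normalization undone. Without culture 2 it was 0.0909 and without culture 1 it was 0.0356.

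The count of members called along the position was the least stable value. It was 1, but 2 with the rebuilt position and with linear values, 5 with the normalization undone, 6 and 0 with thresholds of 0.02 and 0.1, and 1 to 6 with a culture left out. Over the table of 10666 genes the count was 428, and 890 and 240 with those thresholds. It was 421 with the rebuilt position, 404 with linear values and 588 with the normalization undone. With culture 2 left out it was 597, and with culture 1 left out 454. The median position of the maximum of the nucleolar genes, 0.643π, was 0.885π with a span of 0.5, 0.608π with the rebuilt position, 0.698π with a pseudocount of 0.1, 0.780π with the normalization undone and 0.575π with 2 harmonics. Of the 8 genes most like *Myc*, 4 remained after position and depth were removed. No alternative reversed the correlation among the nucleolar genes, that of *Myc* with the score or the difference between cells with and without *Myc*. In culture 1 the median r of the mitochondrial ribosomal proteins with the score went from −0.00341 to 0.0116 once position and depth were removed. For single genes, 41 of 112 alternative values moved by more than the spread between cultures, and the maximum of *Fbl* moved to 1.79π with a span of 0.1. The causes were not tested.

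No paired analysis was possible because there is 1 group. The planned correlations with *Mycn* were not run, since *Mycn* was not analysed here. The spread rests on 2 cultures of unequal depth, and at like depth *Dkc1* was still detected in 66.9% of cells of culture 1 against 50.5% of culture 2.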

Other observations

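The genes most opposite to the nucleolar score were led by nuclear-encoded subunits of oxidative phosphorylation, which were outside the lists above. Of the 10 most opposite genes, *Cox8a* (r of −0.397 and −0.344), *Cox6c* (−0.336 and −0.342), *Cox6a1* (−0.409 and −0.317), *Cox7c* (−0.304 and −0.321) and *Cox6b1* (−0.390 and −0.284) encode subunits of cytochrome c oxidase, *Uqcrh* (−0.376 and −0.309) a subunit of complex III, and *Atp5mpl* (−0.365 and −0.320) and *Atp5l* (−0.308 and −0.281) subunits of ATP synthase. The others were *Selenow*, a selenoprotein gene (−0.342 and −0.298), and *Mxd4*. After the position and depth were removed *Cox8a* was still at −0.327 and −0.331. Of the 10, only *Mxd4* was called along the position in both cultures, against 4.01% of the table. The values of a cell sum to nearly the same total, and these transcripts are abundant (mean values of 15.6 to 33.9 for the 8 subunits). The part of that shared total in these correlations was not tested.

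The glial gene *S100b* was detected in 18.6% and 6.65% of cells and had an r with the nucleolar score of −0.203 and −0.0900. For *Aldh1l1*, the other astroglial marker measured, the r was −0.134 and −0.0935.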
